A study of Mus musculus with 2 samples.

Results

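The 8 anterior and central genes of the Hoxb cluster, Hoxb1 to Hoxb8, were examined as accessible chromatin in single nuclei of the mouse embryonic kidney. A peak was taken as a region of a member when it overlapped the gene body or the 2 kb upstream of it. These windows held 23 regions of the 176056 in the series, and 14 of the 110706 regions that were called in both libraries. The 8 genes are 8 of the 21923 protein-coding genes of the annotation used.

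E15.5 kidneys were profiled by single-nucleus ATAC-seq, which counts where the Tn5 transposase could cut the chromatin of each nucleus. Enl-WT embryos were Enl+/+ Wt1GFPCre/+. Enl-T1 embryos were Enl flox-T1/+ Wt1GFPCre/+ and carried, on 1 allele, a Cre-inducible insertion in the YEATS domain of the acetylated-histone reader ENL (gene Mllt1), a change found in Wilms tumor. Each group is 1 library, the Cre is driven from the Wt1 locus and acts in nephron and stromal progenitors but not in the ureteric bud, and both groups carry the Wt1GFPCre allele, which takes the place of 1 copy of Wt1. Neither the labels nor the methods state the number of embryos pooled. With 1 library a group no difference has a replicate check, and none was tested. Intervals below are 95% intervals that cover counting error only. PCR copies and the spread between embryos are outside them.

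Hox genes encode homeodomain transcription factors that give cells their position along the body axis. In each cluster the genes at the 3′ end, such as Hoxb1, are switched on earliest and furthest forward, and genes nearer the 5′ end follow later and further back, with retinoic acid as an activating signal and Polycomb complexes as repressors. In the kidney the posterior Hox genes are the known patterning genes, while a promoter fragment of Hoxb7 is widely used to mark the ureteric bud, and ENL itself is known for holding Hox genes active in leukemia.

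After barcodes with 2000 to 100000 counts were kept, Enl-WT had 9472 nuclei with a median of 14789.5 counts and Enl-T1 had 12635 with a median of 8753. The kept nuclei of both libraries had 149 barcode sequences in common. Nuclei were clustered without the Hoxb cluster and its flanks, and the groups named from fixed markers. The nuclei named from nephron progenitor markers lay almost wholly in 1 cluster per library, cluster 2 (1852 Enl-WT and 94 Enl-T1 nuclei) and cluster 0 (21 and 4160). The distal tubule gene Umod was among the 10 leading genes of cluster 2, and neither cluster had a progenitor marker among its own 10, so the comparison is of cluster 2 of Enl-WT with cluster 0 of Enl-T1, called the progenitor clusters. Six2, the factor that keeps nephron progenitors uncommitted, had 69.7 CPM in these nuclei of Enl-WT and 55.1 in those of Enl-T1 (CPM, counts scaled to a total of 1000000 in shared regions), against 13.9 and 13.6 in stroma-like nuclei. Summed over all 7 progenitor markers the groups lay closer, at 354 and 288 CPM against 250 and 268 CPM in stroma-like nuclei. Over all nuclei that sum was 245 and 255 CPM. The 7 early nephron epithelium markers summed to 281 and 363 CPM in the progenitor clusters, against 294 and 291 CPM over all nuclei. Whether both clusters hold progenitors of the same kind was not tested. The other large groups of both libraries were stroma-like nuclei (3244 in Enl-WT, 5467 in Enl-T1), ureteric epithelium-like nuclei, called ureteric-like below (883 and 1727), and endothelial-like nuclei (713 and 513). The endothelial marker Pecam1 stood at 275 and 280 CPM in endothelial-like nuclei, and the ureteric marker Gata3 at 176 and 171 CPM in ureteric-like nuclei. The inserted residues cannot be seen in counts over peaks, so accessibility of Mllt1 checks no label.

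The 23 regions were numbered R1 to R23 in the direction of transcription, from Hoxb8 to Hoxb1, all on chromosome 11 (mm10). Enl-WT had 20 peaks over 19083 bases and Enl-T1 had 17 over 14432 bases. In all, 14 regions were called in both libraries, 6 in Enl-WT only and 3 in Enl-T1 only, and over the genome 110706 were called in both, 47872 in Enl-WT only and 17478 in Enl-T1 only. A peak called in 1 library has no count in the other, so its difference between the libraries has no value here.

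The 3 regions called in Enl-T1 alone each held a transcription start, that of Hoxb8 (R1, chr11:96281877-96282715), of Hoxb7 (R3, chr11:96286328-96287090) and of Hoxb1 (R22, chr11:96365622-96366289). Per kb of peak and over all nuclei, R1 lay above 91.3% of all Enl-T1 peaks, R3 above 92.5% and R22 above 76.1%. R1 had 17.9 CPM and R3 18.7 CPM over all Enl-T1 nuclei. The Enl-WT list reached down to peaks of 1.36 CPM at its 5th percentile but holds no value for these starts, so a difference there was not tested. The 6 regions called in Enl-WT alone lay in or near Hoxb6 (R8), Hoxb3 (R12, R14 and R17) and Hoxb2 (R18 and R20). None of them held a start, but R17 begins at base 96343791, just past the Hoxb3 start used here at 96343769. How often regions called in 1 library hold a start over the genome was not counted, so this split only describes the peaks listed. Hoxb4 and Hoxb5 had shared regions only.

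Promoter sequence was taken for the 3 members that the RefSeq promoter table of build GRCm38.p6 holds, Hoxb8, Hoxb4 and Hoxb1, as the bases before the transcription start on the plus strand. They are shown because the starts of Hoxb8 and Hoxb1 were in peaks of Enl-T1 alone and that of Hoxb4 in a peak of both libraries. Capitals mark matches, on either strand, to a Hox-Pbx motif (TGATNNAT), a Six2 motif (TCAGGTTTC), a retinoic acid response element, a TATA box, a CCAAT box or a GC box. The response element was searched as GGTCA repeated in the same direction after 5 bases. For the TATA box the letters were TATAAA, with no mismatch allowed. The CCAAT box was searched as the 5 letters of its name. A GC box was taken as the run GGGCGG on either strand.
Hoxb8 promoter, chr11:96281655-96281904: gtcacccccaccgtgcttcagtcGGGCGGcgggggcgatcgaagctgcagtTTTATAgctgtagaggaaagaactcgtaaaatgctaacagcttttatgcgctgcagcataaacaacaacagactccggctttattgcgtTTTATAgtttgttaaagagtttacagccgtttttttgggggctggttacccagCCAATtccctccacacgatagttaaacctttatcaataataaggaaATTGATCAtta
Hoxb4 promoter, chr11:96318017-96318266: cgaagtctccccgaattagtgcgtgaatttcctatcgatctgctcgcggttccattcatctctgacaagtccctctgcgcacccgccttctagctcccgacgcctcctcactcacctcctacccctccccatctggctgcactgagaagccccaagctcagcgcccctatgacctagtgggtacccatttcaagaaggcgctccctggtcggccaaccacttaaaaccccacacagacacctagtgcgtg
Hoxb1 promoter, chr11:96365508-96365751: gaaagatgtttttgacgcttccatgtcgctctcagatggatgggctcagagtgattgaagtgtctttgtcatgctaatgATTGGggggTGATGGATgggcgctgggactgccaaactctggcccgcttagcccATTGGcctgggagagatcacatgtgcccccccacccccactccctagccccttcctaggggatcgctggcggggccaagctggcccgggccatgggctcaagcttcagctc
The Hoxb8 promoter held 5 matches, namely 2 TATA boxes, a GC box, a CCAAT box and, 11 bases before the start, a Hox-Pbx motif. The Hoxb1 promoter held a Hox-Pbx motif and 2 CCAAT boxes, and the Hoxb4 promoter held none of the 6 motifs. Of 32851 promoter windows in the table, 7.68% held the Hox-Pbx motif, 12.4% the TATA box, 33.8% the CCAAT box and 32.7% the GC box. The ratio of observed to expected CpG was 0.974 before Hoxb8, above 92.8% of promoters, 0.760 before Hoxb4 and 0.325 before Hoxb1.

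Of the regions described below, 3 are shown, and 1 of them, R14, was called in Enl-WT alone and has no ratio. Each is given as the 300 bases at the centre of the peak (of the overlap of both peaks for R2 and R21), plus strand, from the GRCm38.p6 genome. R2 lies between the end of Hoxb8 and the start of Hoxb7, R14 in an intron of Hoxb3 and R21 upstream of Hoxb1, and capitals mark the same 6 motifs.
R2, chr11:96285347-96285646: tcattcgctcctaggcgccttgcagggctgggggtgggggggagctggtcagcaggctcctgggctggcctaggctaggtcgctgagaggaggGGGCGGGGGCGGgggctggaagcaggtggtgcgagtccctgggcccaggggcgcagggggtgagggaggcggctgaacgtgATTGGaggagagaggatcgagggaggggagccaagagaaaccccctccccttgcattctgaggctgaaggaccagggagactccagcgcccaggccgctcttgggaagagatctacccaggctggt
R14, chr11:96333484-96333783: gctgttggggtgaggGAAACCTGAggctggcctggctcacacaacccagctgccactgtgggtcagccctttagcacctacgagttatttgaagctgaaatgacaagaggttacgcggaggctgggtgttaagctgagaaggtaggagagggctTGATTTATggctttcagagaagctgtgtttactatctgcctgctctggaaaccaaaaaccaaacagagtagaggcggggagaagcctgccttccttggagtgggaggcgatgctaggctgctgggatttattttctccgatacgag
R21, chr11:96363819-96364118: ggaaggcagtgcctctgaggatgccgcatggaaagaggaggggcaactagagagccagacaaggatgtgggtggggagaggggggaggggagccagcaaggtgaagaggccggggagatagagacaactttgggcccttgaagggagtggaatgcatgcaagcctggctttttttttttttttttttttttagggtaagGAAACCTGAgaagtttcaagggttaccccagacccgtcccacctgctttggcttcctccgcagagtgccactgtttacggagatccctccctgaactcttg
R2 had a GC content of 68.0%, above 94.1% of the central 300 bases of all shared regions, with 2 GC boxes and a CCAAT box. R14 and R21 each held the Six2 motif, and R14 also a Hox-Pbx motif. The Six2 motif was in the central 300 bases of 2 of the 23 Hoxb regions, these 2, and in 0.747% of 110665 shared regions. The Hox-Pbx motif was in 4 of the 23 (R3, R14, R19 and R23) and in 13.0% of shared regions. None of the 23 windows held the retinoic acid response element as spelled here, which was in 0.0994% of shared regions. A match of letters is a description of the sequence and no evidence that a factor binds.

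**Figure D1:**
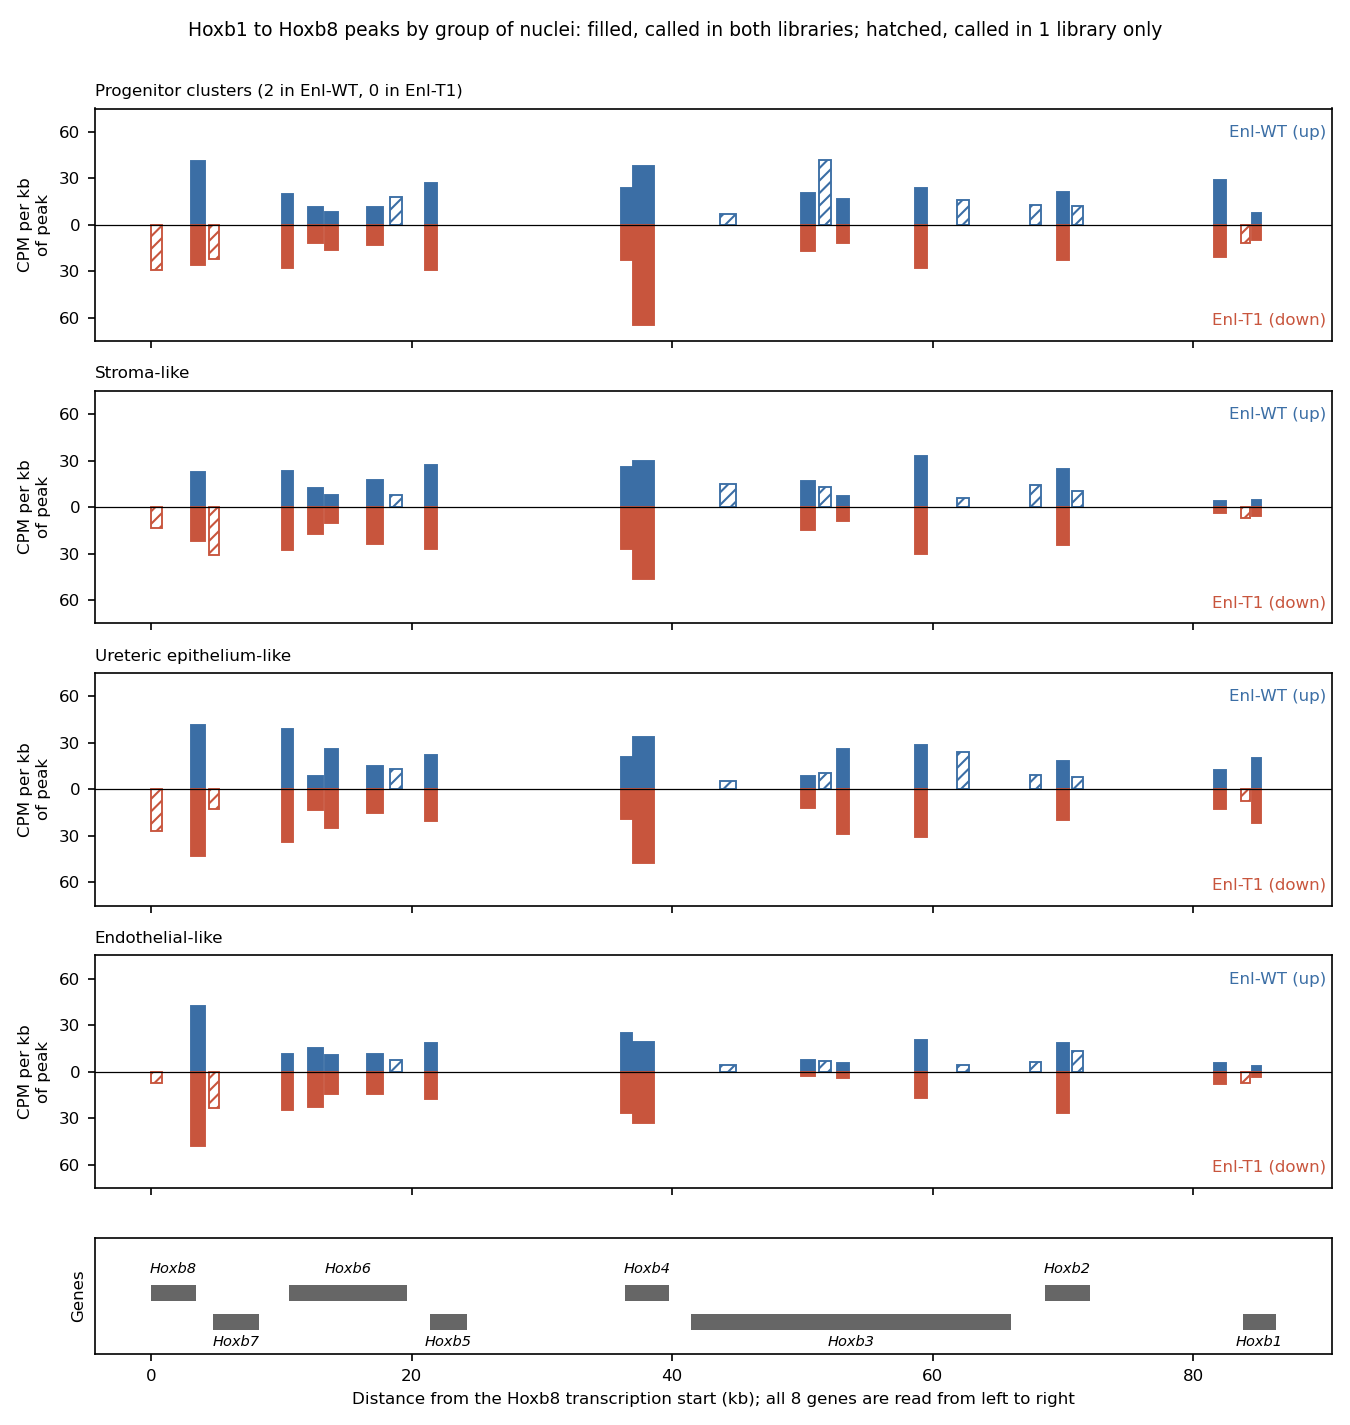
Accessibility along the Hoxb cluster, plotted as CPM per kb of each library's own peak against distance in kb from the Hoxb8 start, upwards for Enl-WT and downwards for Enl-T1, with 1 panel per group of nuclei and the genes below. Filled bars are regions called in both libraries and hatched bars regions called in 1 library; R2, close to 4 kb, stood at 40.9 in Enl-WT and 26.2 in Enl-T1 in the progenitor clusters, and R21, at about 82 kb, was low in stroma-like nuclei (3.94 and 3.91).

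Summed over the 14 shared regions, the cluster was open at much the same level in both libraries. The progenitor clusters had 298 CPM (289 to 308) in Enl-WT and 286 CPM (279 to 294) in Enl-T1. Stroma-like nuclei had 254 (247 to 261) and 256 CPM (249 to 263). Ureteric-like nuclei had 316 (303 to 331) and 299 CPM (287 to 312), and endothelial-like nuclei 216 (202 to 229) and 229 CPM (208 to 250). The order of the groups in Enl-WT was ureteric-like, progenitor, stroma-like and endothelial-like, with the intervals of the first 2 overlapping and those of the others apart.

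Among nuclei that were present mainly in Enl-WT, early nephron epithelium-like nuclei had 264 CPM, proximal tubule-like nuclei 301 CPM and podocyte-like nuclei 167 CPM. Cluster 6, which had the highest score for distal tubule or loop markers, had 337 CPM (324 to 350) in 1057 Enl-WT nuclei and 246 CPM (216 to 279) in 210 Enl-T1 nuclei. Immune-like nuclei, in which the level was lowest, had 60.8 CPM (40.9 to 87.0) and 116 CPM (89.6 to 149). The intervals of both groups did not overlap between the libraries, but the immune-like groups held only 102 and 168 nuclei. In cluster 6 the distal tubule or loop markers summed to 228 CPM in Enl-WT and 161 CPM in Enl-T1. The early nephron epithelium markers summed to 437 and 496 CPM there. Whether the cluster 6 nuclei of both libraries are alike in kind was not tested.

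**Figure D2:**
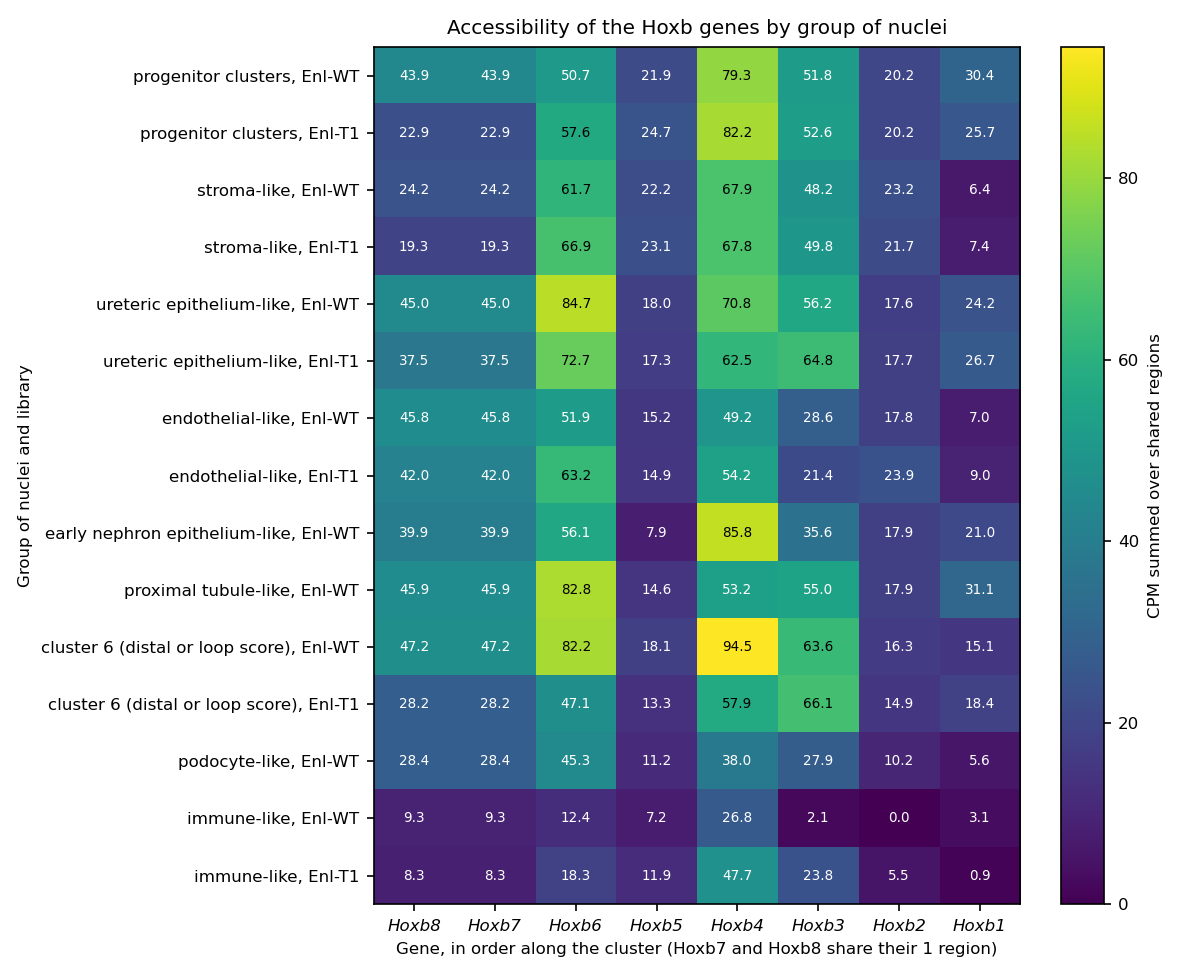
CPM summed over the shared regions of each gene (columns, in order along the cluster) in each group of nuclei and library (rows), with the value printed in each cell and coloured from 0 upwards. Hoxb1 had 30.4 in the progenitor clusters of Enl-WT and 6.43 in stroma-like nuclei, and its column is among the most uneven. Sums are not per length, so columns cannot be ranked against each other.

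Hoxb8, a gene that keeps myeloid progenitors immature when forced on, had a single shared region, R2 (chr11:96284972-96286045), which runs from its 3′ end into the space before Hoxb7. In Enl-WT, R2 had 43.9 CPM in the progenitor clusters, 45.0 in ureteric-like nuclei, 45.8 in endothelial-like nuclei and only 24.2 in stroma-like nuclei. In Enl-T1 it had 22.9, 37.5, 42.0 and 19.3 CPM in the same order. Of these 4 groups the difference was largest in the progenitor clusters, where the Enl-WT value was close to those of the ureteric-like and endothelial-like nuclei and the Enl-T1 value close to that of stroma-like nuclei. The log2 ratio of Enl-T1 over Enl-WT was −0.94 (−1.12 to −0.76) in the progenitor clusters, −0.33 (−0.52 to −0.13) in stroma-like, −0.26 (−0.50 to −0.016) in ureteric-like and −0.12 (−0.51 to 0.25) in endothelial-like nuclei.

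The peak was 1074 bases wide in Enl-WT and narrower in Enl-T1, and per kb of peak the ratio was −0.64 in the progenitor clusters, −0.028 in stroma-like, 0.037 in ureteric-like and 0.17 in endothelial-like nuclei. Over all peaks of each list the median CPM per kb was higher in Enl-T1. It was 4.62 against 3.33 in the progenitor clusters and 4.69 against 3.26 in stroma-like nuclei. In ureteric-like nuclei it was 4.17 against 2.83, and in endothelial-like nuclei 3.31 against 2.39. In the 94 Enl-T1 nuclei of cluster 2, R2 had 36.2 CPM from 32 counts, and the ratio within that cluster was −0.26 (−1.10 to 0.43). The summed level of the 7 early nephron epithelium markers was 281 CPM in the progenitor clusters of Enl-WT and 363 CPM in those of Enl-T1, and that of the 7 progenitor markers was 354 and 288 CPM. Library and cluster cannot be told apart in this comparison, and the part of those markers in it was not tested.

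At the Hoxb8 start itself, R1 had 24.3 CPM (22.2 to 26.6) in the progenitor cluster of Enl-T1, 22.7 (19.4 to 26.4) in ureteric-like, 11.1 (9.64 to 12.6) in stroma-like and 6.22 (3.26 to 10.7) in endothelial-like nuclei. The progenitor and ureteric groups were thus above the other groups. At the Hoxb7 start, R3 showed another order, with 23.5 CPM (21.4 to 25.7) in stroma-like nuclei, 17.9 (12.5 to 24.8) in endothelial-like, 16.7 (15.0 to 18.6) in the progenitor cluster and 9.63 (7.55 to 12.1) in ureteric-like nuclei. The start-site region of Hoxb7 therefore had its lowest value of the 4 groups in ureteric-like nuclei of Enl-T1. Enl-WT has no peak at that start and so no value to set beside it. R2, which lies before the Hoxb7 start, had another order in Enl-T1. It had 42.0 CPM in endothelial-like, 37.5 in ureteric-like, 22.9 in progenitor and 19.3 in stroma-like nuclei. Where the ureteric promoter fragment named above lies relative to R2 and R3 was not mapped. Hoxb7 shared R2 with Hoxb8 as its only region of both libraries, so the values of the shared region are the same for both genes and count as 1 measurement.

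Hoxb6, which is expressed in lateral mesoderm and limb bud, had 4 shared regions (R4 to R7). Its sum was 50.7 CPM in the progenitor clusters of Enl-WT and 57.6 in those of Enl-T1, 61.7 and 66.9 in stroma-like, 84.7 and 72.7 in ureteric-like and 51.9 and 63.2 in endothelial-like nuclei. The ratio was 0.18 (0.043 to 0.32), 0.12 (0.0035 to 0.23), −0.22 (−0.40 to −0.045) and 0.28 (−0.039 to 0.60) in that order. The Enl-T1 peaks were narrower in part, and per kb of peak the ureteric-like ratio turned to 0.10. R6, in an intron (chr11:96295246-96296211), had 7.75 and 12.2 CPM in the progenitor clusters, a ratio of 0.65 (0.31 to 1.00). That direction did not hold within cluster 2, at −0.32 (−3.07 to 1.26, 5 Enl-T1 counts), or when each nucleus was called by its own markers, at −0.59 (−1.71 to 0.45). R5, next to it, had 13.3 and 9.60 CPM, a ratio of −0.47 (−0.77 to −0.16) that went to 0.032 per kb of peak. Per kb all 4 regions of the gene were higher in the Enl-T1 progenitor nuclei, by 0.032 to 1.00. The median of all peaks per kb was also higher there, at 4.62 against 3.33. In ureteric-like nuclei R6 had 25.1 and 18.9 CPM, a ratio of −0.40 (−0.74 to −0.066), and −0.058 per kb of peak. R4, over the annotated start of the Hoxb6 gene body, had 16.0 and 23.8 CPM in the progenitor clusters, a ratio of 0.57 (0.33 to 0.82), and 18.8 and 23.6 CPM in stroma-like nuclei. R7, over the Hoxb6 start used here, had 13.7 and 12.0 CPM in the progenitor clusters, with an interval of the ratio that spans 0. These regions also lie in introns of the antisense gene Hoxb5os, and accessibility has no strand.

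R6 also varied between groups of nuclei. In Enl-WT it had 38.5 CPM in proximal tubule-like nuclei, 31.1 in cluster 6 and 25.1 in ureteric-like nuclei, against 7.75 in the progenitor clusters, 7.75 in stroma-like and 8.84 in podocyte-like nuclei. R15 in Hoxb3 had a like order, with 29.9 CPM in cluster 6, 27.5 in proximal tubule-like and 23.8 in ureteric-like nuclei, against 14.9 in the progenitor cluster and 6.40 in stroma-like nuclei. The tubule and ureteric groups were thus above the progenitor and stroma-like ones at both regions.

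Hoxb5, which acts in neural crest and vascular development, had 1 shared region over its start (R9). It had 21.9 CPM in the progenitor clusters of Enl-WT and 24.7 in those of Enl-T1, 22.2 and 23.1 in stroma-like, 18.0 and 17.3 in ureteric-like and 15.2 and 14.9 in endothelial-like nuclei. The intervals of all 4 ratios spanned 0. In Enl-WT its lowest value outside immune-like nuclei was in early nephron epithelium-like nuclei, at 7.88 CPM (5.05 to 11.7), below the progenitor value.

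Hoxb4, known for the expansion of blood stem cells, had 2 shared regions (R10 and R11). It had 79.3 and 82.2 CPM in the progenitor clusters, 67.9 and 67.8 in stroma-like, 70.8 and 62.5 in ureteric-like and 49.2 and 54.2 in endothelial-like nuclei. No interval of the 4 ratios excluded 0. Most of its counts lay in R11 (chr11:96318876-96320525), over the gene body, which had 62.5 CPM (58.3 to 67.0) and 63.5 CPM (60.0 to 67.1) in the progenitor clusters. R10, over the start, had 16.8 and 18.7 CPM there. R11 was 1650 bases wide in Enl-WT and narrower in Enl-T1, so per kb of peak it stood at 37.9 and 64.9, at nearly equal CPM. Per kb of peak the genes can be ranked within a library. In the progenitor cluster of Enl-WT the shared region of Hoxb7 and Hoxb8 stood highest at 40.9, then Hoxb4 at 33.6, Hoxb5 at 26.9, Hoxb2 at 21.4, Hoxb3 at 20.3, Hoxb1 at 20.1 and Hoxb6 at 12.2. In that of Enl-T1 Hoxb4 stood highest at 45.4, then Hoxb5 at 28.9, Hoxb7 and Hoxb8 at 26.2, Hoxb2 at 22.6, Hoxb3 at 18.7, Hoxb6 at 17.3 and Hoxb1 at 16.2.

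Hoxb3, a hindbrain and pharyngeal gene, had 3 shared regions (R13, R15 and R16) and 3 of Enl-WT alone. Its shared sum was 51.8 and 52.6 CPM in the progenitor clusters, 48.2 and 49.8 in stroma-like, 56.2 and 64.8 in ureteric-like and 28.6 and 21.4 in endothelial-like nuclei. Only the interval of the ureteric-like ratio, 0.20 (0.0028 to 0.41), excluded 0. There R13 (chr11:96331835-96332874) had 6.61 CPM in Enl-WT and 12.3 CPM in Enl-T1, a ratio of 0.90 (0.35 to 1.47). R13 was 757 bases wide in Enl-WT and 1040 in Enl-T1, and per kb of peak it stood at 8.73 and 11.9, a ratio of 0.44. R15 had 14.9 and 10.5 CPM in the progenitor clusters, a ratio of −0.51 (−0.80 to −0.22). Within cluster 2 its ratio was 0.70 (−0.38 to 1.56). In stroma-like nuclei it had 6.40 and 8.33 CPM, a ratio of 0.38 (0.035 to 0.73), which turned to −0.45 (−1.38 to 0.41) when each nucleus was called by its own markers.

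R14, whose sequence with a Six2 and a Hox-Pbx motif is given above, had the highest level in the progenitor cluster among the 6 regions of Enl-WT alone. It had 36.9 CPM (33.6 to 40.3) in the progenitor cluster, 21.5 (16.6 to 27.4) in early nephron epithelium-like and 15.0 (9.97 to 21.7) in podocyte-like nuclei. Its level was 11.4 CPM (9.94 to 13.0) in stroma-like nuclei, while ureteric-like nuclei had 9.55 (7.26 to 12.3) and endothelial-like ones 6.29 (4.21 to 9.03). The progenitor value lay above all of these, and per kb of peak R14 at 41.9 stood beside R2 at 40.9 and R11 at 37.9 in that cluster. No Enl-T1 peak overlapped R14, though R13 and R15 on either side of it were called there. R17, near the Hoxb3 start, had 21.5 CPM in ureteric-like nuclei against 5.05 in stroma-like nuclei, and R12 the opposite order, 18.5 CPM in stroma-like against 6.37 in ureteric-like nuclei. The regions of Enl-WT alone held 24.7% of the counts over all Hoxb peaks of that library in the progenitor cluster and 20.2% in stroma-like nuclei, and the regions of Enl-T1 alone held 14.6% and 13.3% of that library's.

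Hoxb2, which acts in the hindbrain and facial nerve, had 1 shared region over its start (R19). It had 20.2 and 20.2 CPM in the progenitor clusters, 23.2 and 21.7 in stroma-like, 17.6 and 17.7 in ureteric-like and 17.8 and 23.9 in endothelial-like nuclei. The ratio in the progenitor clusters was 0.00071 (−0.23 to 0.23), and the intervals in the other 3 groups also spanned 0.

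Hoxb1, the 3′ gene that sets the identity of a hindbrain segment, differed between groups of nuclei. Its sum over R21 and R23 was 30.4 and 25.7 CPM in the progenitor clusters and 24.2 and 26.7 in ureteric-like nuclei, but 6.43 and 7.38 in stroma-like and 7.04 and 8.95 in endothelial-like nuclei. R21, upstream of the start (chr11:96363511-96364431), had 25.8 CPM (23.1 to 28.7) and 18.5 CPM (16.7 to 20.5) in the progenitor clusters, 21.4 in proximal tubule-like and 15.8 in early nephron epithelium-like nuclei of Enl-WT, and 3.50 (2.71 to 4.44) and 3.45 (2.68 to 4.37) in stroma-like nuclei. The progenitor clusters were thus above stroma-like nuclei in both libraries, as were the proximal tubule-like and early nephron epithelium-like nuclei in Enl-WT. Podocyte-like nuclei, at 3.21 CPM, were not. The ratio of R21 in the progenitor clusters was −0.48 (−0.70 to −0.26), and within cluster 2 it was 0.64 (−0.17 to 1.31, 35 Enl-T1 counts). R23, over a coding exon, had 4.60 and 7.18 CPM there, a ratio of 0.64 (0.20 to 1.10), so that both regions of the gene went opposite ways and the sum had a ratio of −0.24 (−0.44 to −0.050). With R23 alone, the region within 1 kb of the start, the gene's direction was the reverse. R22 at the start, in Enl-T1 alone, had 7.86 CPM in the progenitor cluster, against 4.88 to 4.97 in the other 3 groups.

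**Figure D3:**
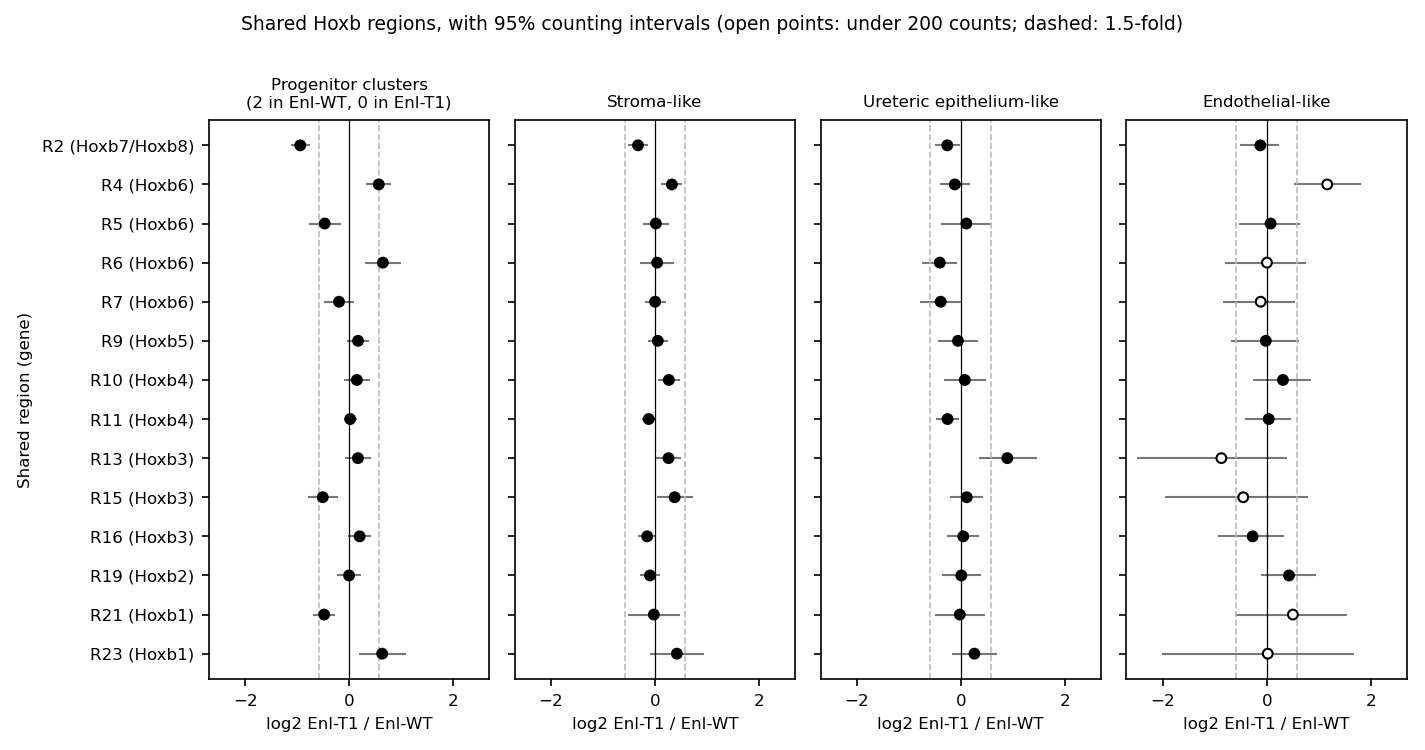
Log2 ratio of Enl-T1 over Enl-WT for each of the 14 shared Hoxb regions (rows, from Hoxb8 to Hoxb1) in 4 groups of nuclei, with lines for the 95% counting interval. R2 at −0.94 is the only region below the lower 1.5-fold line in the progenitor clusters, stroma-like points all lie between the lines, and open points have under 200 counts.

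A region was counted as past 1.5-fold when it had at least 200 counts over both libraries. In the progenitor clusters 2 of the 14 shared regions were past it with Enl-T1 higher (R6 and R23) and 1 with Enl-T1 lower (R2), where 11.6% and 12.6% of all shared regions were. Per kb of peak R23 was no longer past it, at 0.45. Within cluster 2, R6 stood at −0.32 (−3.07 to 1.26) from 5 Enl-T1 counts and R23 at −0.22 (−4.27 to 1.72) from 3. R2 stood at −0.26 (−1.10 to 0.43) there. These intervals contain the ratios of the progenitor clusters, so the few nuclei cannot show whether the 3 calls hold within cluster 2. In stroma-like nuclei 0 of 14 were past it in either direction, against 7.13% higher and 5.43% lower over all regions. In ureteric-like nuclei 1 of 14 was higher (R13, though not per kb of peak) and 0 lower, against 3.65% and 2.67%. In endothelial-like nuclei 7 of the 14 had enough counts and 0 were past it, against 1.68% higher and 4.38% lower. The median ratio of the 14 regions was 0.086 in the progenitor clusters, 0.030 in stroma-like, −0.0050 in ureteric-like and 0.012 in endothelial-like nuclei, beside 0.0058, 0.022, −0.021 and −0.044 over all shared regions. At the background rates of the progenitor clusters 1 or 2 of 14 regions would be past the fold in each direction, so the counts there were near the background.

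By gene sums, the 2 genes that share R2 were past 1.5-fold lower in the progenitor clusters, where 2.31% of protein-coding genes were lower and 1.63% higher. Both genes stand for the 1 region R2, and 12.6% of single shared regions were lower by that fold there, so they are no excess of genes. In the other groups no member was past it, and over all genes 0.924% were higher and 0.679% lower in stroma-like, 0.859% and 0.521% in ureteric-like and 0.882% and 1.03% in endothelial-like nuclei.

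Different clusters held most of the stroma-like nuclei of each library. Enl-WT had most in cluster 1 (1317 nuclei) and cluster 5 (955), and Enl-T1 in clusters 1 (1335), 7 (1067) and 4 (1033). Within cluster 1 the 14 regions summed to 224 CPM (214 to 234) in Enl-WT and 247 CPM (234 to 260) in Enl-T1, within cluster 4 to 267 and 251 CPM and within cluster 5 to 295 and 299 CPM. The ratio was 0.14 (0.036 to 0.24) in cluster 1, and its interval spanned 0 in clusters 4 and 5. In cluster 9, with 60 Enl-WT nuclei against 853, it was 0.96 (0.53 to 1.43). Of the ureteric clusters, cluster 3 had 325 and 323 CPM and cluster 10 had 277 and 261 CPM.

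**Figure D4:**
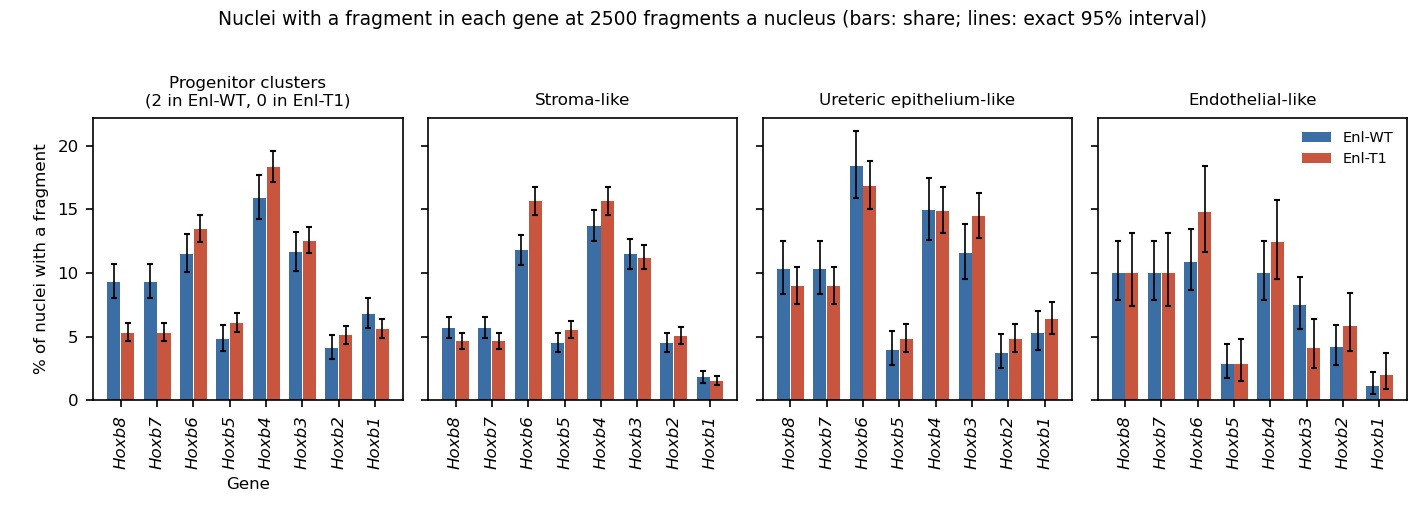
Percent of nuclei with at least 1 fragment in the shared regions of each gene after every nucleus was thinned to 2500 fragments, by group of nuclei and library, with exact 95% intervals as lines. Hoxb7 and Hoxb8 show the same region, at 9.31% in Enl-WT and 5.31% in Enl-T1 in the progenitor clusters.

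Shares of nuclei were compared at equal depth. After thinning to 2500 fragments in peaks, which left out 36 of the 1852 nuclei of the Enl-WT progenitor cluster and 183 of the 4160 of the Enl-T1 one, 9.31% of the former had a fragment in R2 (8.01 to 10.7, exact Clopper-Pearson). Of the latter 5.31% had one (4.63 to 6.05). The unthinned shares were 26.4% and 10.3%, at a median of 15862 and 10080.5 counts. Hoxb4 was found in 15.9% (14.3 to 17.7) and 18.3% (17.1 to 19.6). In stroma-like nuclei R2 was found in 5.66% (4.87 to 6.54) and 4.63% (4.03 to 5.29), and in ureteric-like nuclei in 10.3% (8.34 to 12.5) and 8.95% (7.59 to 10.5). Hoxb1 was found in 6.77% (5.66 to 8.03) and 5.61% (4.91 to 6.37) of nuclei of the progenitor clusters and in 1.80% (1.36 to 2.34) and 1.53% (1.19 to 1.94) of stroma-like nuclei. Any of the 14 regions was found in 49.1% and 50.1% of nuclei of the progenitor clusters, and in 8.60% and 19.2% of immune-like nuclei, the group with the lowest level. Thinning was over all peaks of a library, of which shared regions held 88.8% in Enl-WT but 94.9% in Enl-T1, so equal CPM gives a slightly higher share in Enl-T1.

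Beyond the 8 genes, Hoxb9, the next gene towards the 5′ end, had 44.8 CPM in the progenitor clusters of Enl-WT and 66.9 in those of Enl-T1, a ratio of 0.58 (0.44 to 0.72), and 55.2 and 44.0 CPM in ureteric-like nuclei, a ratio of −0.33 (−0.55 to −0.10). Hoxb13, apart from the rest of the cluster, had 4.64 and 5.29 CPM in the progenitor clusters. The flanking gene Ttll6 had 22.6 and 24.0 CPM there, and Skap1, on the Hoxb1 side, 357 and 387 CPM, a ratio of 0.12 (0.063 to 0.17).

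Accessibility of the genes that act with or on the cluster was described from lists. Of the 9 cofactors that bind DNA with Hox proteins (Pbx, Meis and Pknox genes), 0 were past 1.5-fold in any of the 4 groups, with 8 of them over the count minimum in endothelial-like nuclei, and their median ratio was 0.050 in the progenitor clusters. Of 16 retinoic acid genes, 1 was past it there, Cyp26a1, which encodes an enzyme that clears retinoic acid, with 3.91 and 6.16 CPM and a ratio of 0.65 (0.17 to 1.16), and the median was 0.059. Over all protein-coding genes 1.63% were higher there. Of the 8 upstream activators, among them Cdx genes and Kmt2a, 6 had enough counts and 0 were past it, with a median of −0.050. Of the 18 Polycomb genes 0 were past it in the progenitor clusters, with a median of −0.028. In endothelial-like nuclei 2 Polycomb genes were higher in Enl-T1, Cbx2 with 46.7 and 70.1 CPM, a ratio of 0.59 (0.27 to 0.90), and Phc3 with 19.1 and 33.6 CPM, a ratio of 0.82 (0.34 to 1.29). Over all protein-coding genes 0.882% were higher in that group. In stroma-like and ureteric-like nuclei 0 genes of the 4 lists were past it, and the medians of the lists lay between −0.061 and 0.068. In endothelial-like nuclei they lay between −0.12 and −0.020. Of the retinoic acid genes 15 had enough counts in stroma-like, 14 in ureteric-like and 10 in endothelial-like nuclei. Of the upstream activators 6, 6 and 5 did, in the same order. Over all protein-coding genes the median ratio in the progenitor clusters was 0.0085.

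Among 16811 genes outside the cluster, those whose log2(CPM + 1) across 15 pairs of group and library lay closest to the summed level of the 8 genes were B4galnt4 (Pearson r = 0.957), Igdcc3 (0.949), Lrfn4 (0.947), Sorbs2 (0.946) and Slc16a8 (0.946). The 15 points come from 2 libraries and share their depth and peak lists, so r is a description and has no p.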

How the data were processed

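Nuclei of E15.5 kidneys were profiled with the 10x ATAC kit in 1 Enl-WT and 1 Enl-T1 library. Per the labels, Cell Ranger ATAC 2.1.0 was run against mm10, and the authors deposited, for each library, its own peak list and a matrix of counts (transposase cuts, mostly 2 per fragment) per peak and barcode. They were not normalized. Peaks were called per library, so a count exists only where that library has a peak.

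Barcodes with 2000 to 100000 counts were kept. The authors' filters on fragments, blacklist and start-site enrichment were not applied. Peaks of both libraries overlapping by at least 1 base were joined into shared regions, and CPM is counts scaled to 1000000 in shared regions. Genes are from GENCODE M21, whose build matches the mm10 of the files, with 2 kb upstream, and a start is that of the best-supported transcript. A region in the windows of overlapping genes counts for each. Nuclei of both libraries were clustered together (latent semantic indexing, components 2 to 30, 15 neighbours, leidenalg 0.10.2, resolution 1), without integration and without regions within 100 kb of the cluster. Groups were named from marker lists, and a cluster needed at least 50 nuclei and 3 raised markers. Doublets were kept, and removed as an alternative. The fixed plan was to compare nephron progenitor-like nuclei as a class. As 1 of the 2 clusters led with a marker of another class, they were compared by number.

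Ratios are log2 after adding 0.5 to both counts, with an exact binomial interval on fragments (counts divided by 2), and levels have exact Poisson intervals. The intervals were run on simulated independent Poisson counts with known ratios. That is the model they assume, so the run checks the code and not their cover of PCR copies or of spread between nuclei or embryos. A ratio past 1.5-fold needed 200 counts. All 8 members are named, with Hoxb9, Hoxb13, the nearest flanking genes, 4 lists and the 5 genes closest in pattern. Single regions of the members were picked out after their values were seen. The members, lists and rules were chosen with earlier results of these data known. Python 3.11.15, scipy 1.17.1 and pysam 0.24.0 were used.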

Additional observations from a re-analysis of the deposited data

Results flagged for a closer look

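The following differences between Enl-T1 and Enl-WT went opposite ways in 2 groups of nuclei, with counting intervals on either side of 0. The difference between the groups was not tested, since each group of nuclei comes from 1 library per genotype. Hoxb6 had a log2 ratio of 0.18 in the progenitor clusters and 0.12 in stroma-like nuclei, against −0.22 in ureteric epithelium-like nuclei. Per kb of peak the last of these was 0.10, with the median of all peaks also higher in Enl-T1 (4.17 against 2.83). The Hoxb6 region R6 had 0.65 in the progenitor clusters and −0.40 in ureteric epithelium-like nuclei. The former was −0.32 within cluster 2, from 5 Enl-T1 counts, and −0.59 when each nucleus was called by its own markers. The latter was −0.058 per kb of peak. R15, in an intron of Hoxb3, had −0.51 in the progenitor clusters and 0.38 in stroma-like nuclei. The former was 0.70 within cluster 2, and the latter −0.45 when each nucleus was called by its own markers, so neither opposition holds under all settings.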

How the results depend on the processing

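No paired analysis was possible because each genotype is 1 library, and for the same reason no replicate was left out. Of the summed and median ratios and peak counts under other settings, 82 values stayed within a set range. All that did not are given here. The range was the counting interval for sums, a central span of the 14 region values for medians, and the same count for peaks. That span is wide, from −0.48 to 0.57 in the progenitor clusters, so a median could hardly leave it. One setting raised the lead over other lineages that a name needed from 0.1 to 0.2. It changed no name, so its values repeat the main ones and check nothing. Of the values of single genes, levels and shares, 389 stayed within the counting interval, 67 moved beyond it and 8 turned sign. The summed ratio of the 14 regions in the progenitor clusters, −0.061, lies close to 0 and turned to 0.11 at resolution 0.5, to 0.080 per kb of peak and to 0.029 as shares of thinned nuclei, and was −0.16 on peaks matched by 80% of their length. At resolution 0.5 only 94 Enl-T1 nuclei kept the progenitor name, by construction, since the cluster with the rest raised too few markers. There Hoxb1 turned to 0.53 and Hoxb6 to −0.024. Single regions turned too, R6 to −0.32 (5 Enl-T1 counts), R15 to 0.73, R21 to 0.64 and R23 to −0.19 (3 Enl-T1 counts). At that resolution R2 was −0.27 (−1.11 to 0.42). Within cluster 2 R2 was −0.26, and under the other settings it ranged from −0.97 to −0.64. With regions within 1 kb of the start alone, Hoxb1 turned to 0.64 and Hoxb6 to −0.19, since R21 and R4 to R6 drop out. In stroma-like nuclei the summed ratio, 0.012, was 0.14 in cluster 1 alone, 0.15 per kb of peak and 0.13 as thinned shares, and Hoxb6 turned to −0.055 when each nucleus was called by its own markers. In ureteric epithelium-like nuclei the summed ratio, −0.081, was −0.17 with median of ratios, 0.061 per kb of peak and 0.085 as thinned shares, and per kb Hoxb6 turned to 0.10 and Hoxb7 and Hoxb8 to 0.037. Median of ratios moved the median of all regions by under 0.1 in each group, to −0.11 in ureteric epithelium-like nuclei and −0.12 in the endothelial-like ones. The cause of the other changes was not tested. The per kb and single-cluster settings and the pooled progenitor class were chosen after seeing the data. Per kb, the median of all peaks was itself higher in Enl-T1 in each large group. In endothelial-like nuclei 7 of the 14 regions had the 200 counts a call needed.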
